A study of Homo sapiens with 9 samples.

Results

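The LRRC8 family comprises 5 genes, LRRC8A, LRRC8B, LRRC8C, LRRC8D and LRRC8E, which encode the subunits of the volume-regulated anion channel. They were chosen by gene symbol from the platform annotation, and all 5 were measured, among 14207 genes with a probe set of their own. Each lay on 1 probe set, so the step that takes the brightest of several used no measured value here. The family itself was picked with results of these same arrays in view, so its values describe it and are not independent evidence that it responds. Expression was measured on 9 arrays of ARPE-19, a spontaneously arising human retinal pigment epithelial line. Confluent cells that had been moved from 10% serum to medium with 1% albumin received vehicle (3 arrays), 100 µg/ml cigarette smoke condensate (3 arrays) or 250 µg/ml (3 arrays). The condensate is smoke of machine-smoked research cigarettes caught on a filter and dissolved in DMSO, a 40 mg/ml stock with 6% nicotine per the labels. How long the cells were treated is not given there. Nothing in the labels says that the arrays of a group were separate cultures, and the p-values therefore cover only array-to-array spread, which may be technical.

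The volume-regulated anion channel opens when a cell swells and lets chloride and small organic osmolytes such as taurine leave, after which water follows and the cell shrinks back. LRRC8A, also called SWELL1, is the subunit that every such channel needs, and LRRC8B to LRRC8E are partners whose mixture sets what passes through the pore. In other cells LRRC8D-containing channels are known for passing taurine and platinum drugs, LRRC8C and LRRC8E for passing the immune messenger cGAMP, and oxidants are known to act differently on channels with LRRC8E than on those with LRRC8C or LRRC8D. Retinal pigment epithelium moves chloride and water from the retina towards the choroid, a task in which anion channels take part.

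The arrays of a group correlated at 0.970 to 0.992 over all genes. Of the 13 pigment epithelium markers listed, 12 were measured. OTX2 and MITF, transcription factors of that lineage, lay above 94.8% and 83.0% of genes in mean value, and the 5 general epithelial markers spread from 10.3% for the cadherin gene CDH1 to 99.5% for the keratin gene KRT8. The visual cycle gene RPE65 lay above only 6.41% of genes and BEST1, an anion channel gene of this epithelium, above 16.1%. Both markers were thus near the bottom of the scale in these cells. The remaining measured markers of the list were TTR (14.8%), RLBP1 (22.4%), SERPINF1 (29.2%), LRAT (37.4%), MERTK (47.3%), PMEL (50.2%), RDH5 (55.4%) and TYRP1 (74.6%). Markers of endothelium lay above 3.93% to 25.5% of genes, those of fibroblasts above 6.76% to 41.6% and those of photoreceptors above 16.7% to 46.8%. Of 3 measured leukocyte markers, PTPRC lay above 13.0% of genes, CD3E above 36.3% and the lysosomal membrane gene CD68 above 96.1%. None of the marker lists had a gene called in any comparison. Over all genes 0.549% were called at 250 µg/ml, 0.0633% at 100 µg/ml and 0% between the doses. The pigment epithelium list had a median change of -0.34 with 250 µg/ml (10 of 12 genes lower than in control) and one of -0.23 with 100 µg/ml (11 of 12), and its part in the results below was not tested. Arrays cannot tell fewer cells of a kind from less RNA per cell.

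LRRC8B, LRRC8C and LRRC8D lie close together on human chromosome 1, LRRC8A lies on chromosome 9 and LRRC8E on chromosome 19, in RefSeq on GRCh38.p14. The 250 bases before an annotated start of the 3 neighbours are shown because 2 of them, LRRC8B and LRRC8C, had the higher values under condensate, and LRRC8D did not separate by dose. All 3 are on the plus strand. LRRC8B is at chr1:89524579-89524828, LRRC8C at chr1:89632870-89633119 and LRRC8D, the first of 2 starts in the table, at chr1:89820782-89821031. Capitals mark every match to the motifs given after the sequences.
LRRC8B: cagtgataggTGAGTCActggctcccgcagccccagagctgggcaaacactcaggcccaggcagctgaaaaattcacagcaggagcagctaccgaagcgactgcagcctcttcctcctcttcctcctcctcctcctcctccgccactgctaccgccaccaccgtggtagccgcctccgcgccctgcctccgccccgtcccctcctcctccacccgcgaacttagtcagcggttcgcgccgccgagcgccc
LRRC8C: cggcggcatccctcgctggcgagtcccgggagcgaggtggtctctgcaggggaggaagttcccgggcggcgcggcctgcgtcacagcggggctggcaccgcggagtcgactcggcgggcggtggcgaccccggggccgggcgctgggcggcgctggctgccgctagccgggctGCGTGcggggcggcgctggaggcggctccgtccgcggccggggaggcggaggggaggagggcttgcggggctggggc
LRRC8D: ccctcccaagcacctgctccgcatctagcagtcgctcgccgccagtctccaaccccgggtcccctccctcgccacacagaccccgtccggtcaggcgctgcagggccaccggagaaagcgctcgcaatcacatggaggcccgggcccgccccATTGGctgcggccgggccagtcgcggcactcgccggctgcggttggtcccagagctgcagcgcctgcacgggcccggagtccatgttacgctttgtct

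The motifs searched on both strands were the antioxidant response element TGACNNNGC, the xenobiotic response element core GCGTG, the AP-1 site TGANTCA, the C/EBP-ATF composite TGATGNAA, the unfolded protein response element core TGACGTG, the tonicity element core TGGAAA, the CCAAT box and the cyclic AMP response element TGACGTCA. Some of them can overlap, as AP-1 sites and antioxidant response elements do. LRRC8B had 1 match, an AP-1 site, a motif held by 6.57% of 35116 promoter windows of this length. LRRC8C had 1 match, to the xenobiotic response element core that 32.2% of windows hold, and LRRC8D 1 match, to the CCAAT box on the minus strand (32% of windows). Of the other genes, LRRC8A had 1 cyclic AMP response element in the first of 2 windows (1.65% of windows), and the LRRC8E window had 0 matches. No antioxidant response element letters were in any of the 7 windows of the family, against 10.9% of all windows. A match is a description of these letters, and a missing match says only that the letters are not in the window. The windows were rich in G and C, at 80.8% for LRRC8C, 66.8% for LRRC8B and 70.8% for LRRC8D, against a median of 58.0% over all windows.

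LRRC8B rose at 250 µg/ml. It is the least studied partner subunit and has been linked to calcium leak from the endoplasmic reticulum in a human kidney line. Its log2 values were 3.00, 3.36 and 3.23 in the vehicle controls, 4.11, 3.87 and 4.70 at 100 µg/ml, and 4.48, 5.26 and 5.05 at 250 µg/ml. All 6 treated arrays lay above all 3 controls, while the arrays of both doses overlapped each other.

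At 250 µg/ml LRRC8B averaged 4.93 ± 0.40 log2 units, against 3.19 ± 0.18 in vehicle controls (SD, n = 3 each). The rise was 3.33-fold, or 1.73 ± 0.26 log2 units (SE, 95% interval 1.15 to 2.32, limma adjusted p = 0.036 over all genes). It was the single member called at that dose, where 0.549% of all genes were called. By size it ranked 23 among all 14207 changes, and 0.155% of genes had a larger rise. The call was close to the threshold. It ended without control replicate 1 (adjusted p = 0.057) or 2 (0.060), without CSC_100 replicate 1 (0.081) or 2 (0.056), which enter only through the shared spread, and without CSC_250 replicate 2 (0.17) or 3 (0.066), while the change itself stayed between 1.57 and 1.96.

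With 100 µg/ml LRRC8B averaged 4.23 ± 0.43, against 3.19 ± 0.18 in vehicle controls. The difference of 1.03 ± 0.26 log2 units, 2.04-fold, did not pass (adjusted p = 0.20, interval 0.45 to 1.62). At that dose 0 members passed, where 0.0633% of all genes were called. Both dose comparisons use the same 3 controls. In the vehicle arrays LRRC8B was dim, above 27.1% of genes and near the lower quartile of those arrays (3.04 to 3.10). Without detection calls, whether it was expressed there cannot be told. The fold changes at both doses start from this dim baseline.

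LRRC8C had the second largest difference. This partner subunit, first described as a gene of fat cell differentiation in mouse, is one of those known for cGAMP passage. Its log2 values were 4.52, 3.63 and 4.86 in the vehicle controls, 5.29, 5.30 and 4.97 at 100 µg/ml, and 5.55, 5.56 and 5.10 at 250 µg/ml. Again the 6 treated arrays lay above the 3 controls, with a gap of only 0.11 between CSC_100 replicate 3 and control replicate 3.

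The LRRC8C mean was 5.40 ± 0.27 at 250 µg/ml, against 4.34 ± 0.63 in the controls. That difference of 1.06 ± 0.29 log2 units, 2.09-fold, did not pass over all genes (adjusted p = 0.14, interval 0.39 to 1.73). At 100 µg/ml the mean was 5.19 ± 0.19, against the same 4.34 ± 0.63, a difference of 0.85 ± 0.29 (adjusted p = 0.27, interval 0.18 to 1.52). Control replicate 2 was the lowest of the 9 arrays, and without it the differences were 0.71 at 250 µg/ml and 0.49 at 100 µg/ml.

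Treated arrays without overlap and above the controls were thus found for 2 of 5 members at each dose. Over all genes this held for 8.61% at 250 µg/ml and 6.41% at 100 µg/ml. For both doses at once it held for 4.29% of genes.

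**Figure D1:**
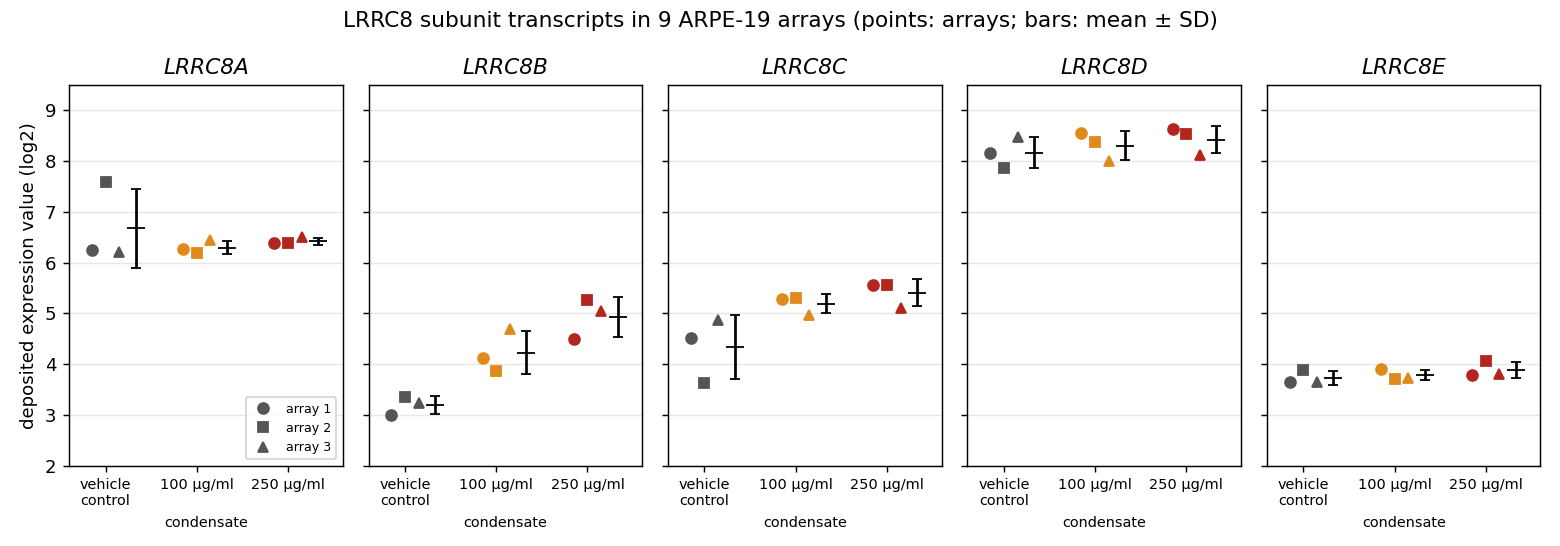
Deposited log2 expression values (vertical axis) of the 5 LRRC8 genes in vehicle control, 100 µg/ml and 250 µg/ml arrays (horizontal axis), with the 3 arrays of a group as points and mean ± SD as bars. LRRC8B and LRRC8C lie higher in all 6 treated arrays than in the 3 controls, LRRC8D and LRRC8E overlap between groups, and LRRC8A has 1 high array, control replicate 2 at 7.58.

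LRRC8A, the subunit that every channel needs, had nearly the same value in 8 of 9 arrays. It read 6.25, 7.58 and 6.21 in the vehicle controls, 6.26, 6.18 and 6.43 at 100 µg/ml, and 6.38, 6.38 and 6.50 at 250 µg/ml. Control replicate 2 stood 1.08 log2 units above every other array, so the groups overlapped. Set against the other 2 controls alone, all 3 arrays at 250 µg/ml were higher, while those at 100 µg/ml overlapped them. That choice of controls was made after seeing the values, and the share of all genes with such a separation was not counted. At 250 µg/ml LRRC8A was called in 0 of 9 fits that left out an array.

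The LRRC8A mean was 6.42 ± 0.07 at 250 µg/ml, against 6.68 ± 0.78 in the controls, a difference of -0.26 ± 0.32 (adjusted p = 0.72, interval -1.0 to 0.48). With 100 µg/ml it was 6.29 ± 0.13, against the same control mean, a difference of -0.39 ± 0.32 (adjusted p = 0.60, interval -1.13 to 0.36). Without control replicate 2 the signs turned, to 0.19 at 250 µg/ml and 0.06 at 100 µg/ml. The sign of the LRRC8A difference therefore rested on that array.

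LRRC8D, the partner known for taurine and drug passage, was the brightest probe set of the family, above 91.4% of genes, although levels of different probe sets cannot be ranked as amounts of RNA. It read 8.16, 7.86 and 8.47 in the vehicle controls, 8.55, 8.37 and 7.99 at 100 µg/ml, and 8.63, 8.53 and 8.11 at 250 µg/ml. The 3 groups overlapped, and at both doses the arrays numbered 3 were the lowest. The difference was 0.26 ± 0.21 at 250 µg/ml (adjusted p = 0.57, interval -0.23 to 0.75) and 0.14 ± 0.21 at 100 µg/ml (adjusted p = 0.79, interval -0.35 to 0.63).

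LRRC8E, the partner tied to channels that oxidants activate, was dim and narrow in range, from 3.64 to 4.06 over all arrays. It read 3.65, 3.89 and 3.64 in the vehicle controls, 3.90, 3.71 and 3.73 at 100 µg/ml, and 3.78, 4.06 and 3.81 at 250 µg/ml. The groups overlapped. The difference was 0.16 ± 0.12 at 250 µg/ml (adjusted p = 0.53, interval -0.12 to 0.44) and 0.06 ± 0.12 at 100 µg/ml (adjusted p = 0.86, interval -0.22 to 0.34). Without detection calls, whether so dim a gene was expressed cannot be told.

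Across the members the changes thus differed in size. At 250 µg/ml 4 of 5 had a positive difference, with a median of 0.26, where 42.7% of all genes had a positive one and the median over all genes was -0.04. At 100 µg/ml the counts were also 4 of 5, with a median of 0.14, against 40.8% of genes and a median of -0.05. The intervals left room for a 1.68-fold rise of LRRC8D at 250 µg/ml and a 1.36-fold rise of LRRC8E, so small rises of these subunits were not detectable with 3 arrays a group.

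**Figure D2:**
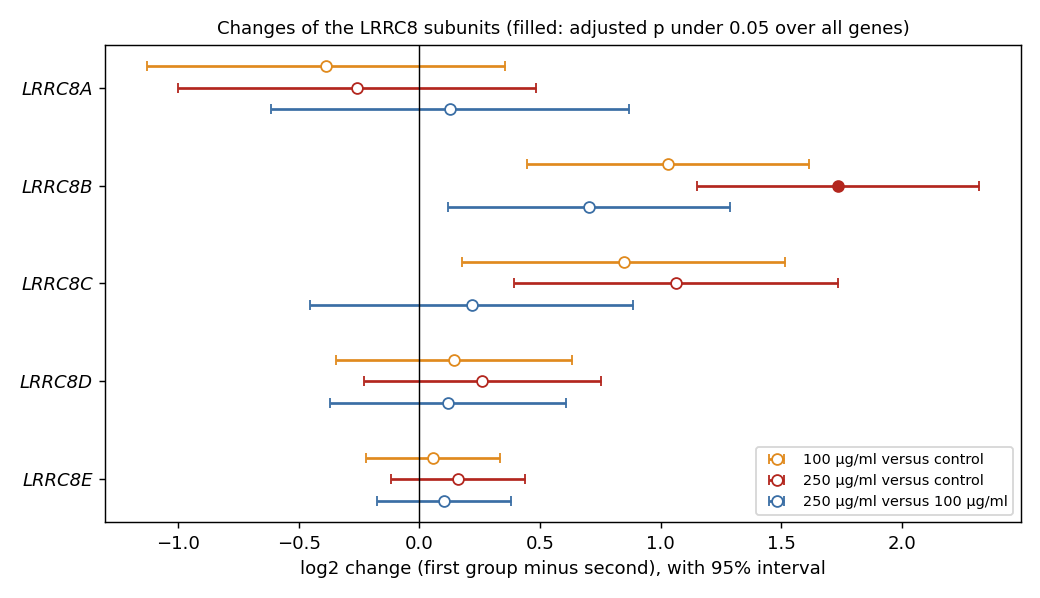
Log2 change of each LRRC8 gene (horizontal axis, first group minus second) with its 95% interval in the 3 comparisons, filled where the adjusted p over all genes was under 0.05. LRRC8B at 250 µg/ml against control is the filled point, at 1.73, and the intervals of LRRC8A, LRRC8D and LRRC8E span 0 in each comparison.

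Between the doses, 250 µg/ml against 100 µg/ml, no gene was called (0 of 14207 by limma, 0%). In this fit, which ignores array numbers, 262 genes had an unadjusted p under 0.05. LRRC8B averaged 4.93 ± 0.40 at 250 µg/ml, against 4.23 ± 0.43 at 100 µg/ml, a difference of 0.70 ± 0.26 (adjusted p above 0.99, unadjusted p = 0.024, interval 0.12 to 1.29). By size this ranked 20 of 14207. For the other 4 members the differences were between 0.10 and 0.22. Arrays of the same number at both doses deviated together, so the doses were also compared within numbers. LRRC8B was higher at 250 µg/ml in all 3 numbers, by 0.37, 1.39 and 0.35. LRRC8C was higher by 0.27, 0.26 and 0.13, LRRC8D by 0.08, 0.16 and 0.12, and LRRC8A by 0.12, 0.20 and 0.06. LRRC8E went both ways, from -0.12 to 0.35. Thus 4 of 5 members were higher in all 3 numbers, against 17.7% of all genes. With the number as a block in the 6 treated arrays the adjusted p of LRRC8B was 0.32 and that of LRRC8C 0.44, and 0 genes passed. In that blocked fit 1593 genes had an unadjusted p under 0.05, against 262 in the fit without the block.

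A single slope over the doses 0, 100 and 250 µg/ml used the order of the 3 groups. That fit ignores array numbers, although arrays of the same number at both doses deviated together. Its SE and intervals therefore treat these arrays as independent. LRRC8B had a slope of 0.68 ± 0.11 log2 units per 100 µg/ml (interval 0.43 to 0.92), which ranked 21 of 14207 by p and missed the threshold (adjusted p = 0.077). For this slope 0 members were called, where 0.113% of all genes were called. LRRC8C had a slope of 0.40 ± 0.13 (adjusted p = 0.22), LRRC8D one of 0.10 ± 0.08 (0.59), LRRC8E one of 0.06 ± 0.05 (0.55) and LRRC8A one of -0.09 ± 0.13 (0.77). Group means climbed at each dose step for 4 of 5 members, all but LRRC8A, and for 20.2% of all genes.

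The LRRC8B slope lay on the other side of the threshold in several settings. Taking the doses as equal steps gave 0.87 log2 units per step and an adjusted p of 0.034. Centring the arrays on their medians gave 0.049, leaving out dim genes 0.046, a variance trend 0.030 and array weights 0.024. These were the 5 of 11 settings in which it was called, and over all 11 the adjusted p ran up to 0.25. With single arrays left out it was called in 1 of 9 fits (adjusted p 0.026 to 0.27).

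Because LRRC8A is common to all channels, each partner was also set against it within an array. LRRC8B relative to LRRC8A shifted upward by 1.99 log2 units at 250 µg/ml and by 1.42 at 100 µg/ml against vehicle, with treated arrays above all controls at both doses (exact two-sided permutation p = 0.10 for each, the smallest that 3 against 3 arrays allow, adjusted p = 0.48 over 12 comparisons). In the same order of doses, LRRC8C relative to LRRC8A shifted by 1.32 and 1.23, and its groups overlapped (exact p = 0.20 for each). LRRC8D relative to LRRC8A shifted by 0.52 and 0.53 (exact p = 0.70 and 0.60), and LRRC8E by 0.42 and 0.44 (exact p = 0.50 and 0.40). Between the doses LRRC8B shifted by 0.58 (exact p = 0.20) and the other partners by -0.02 to 0.09.

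Control replicate 2, high in LRRC8A and low in LRRC8C, enters the ratios set against vehicle. Without it the LRRC8B shift was 1.62 at 250 µg/ml and 1.05 at 100 µg/ml. For LRRC8C the shifts were then 0.52 and 0.43, for LRRC8E 0.05 and 0.07, and for LRRC8D -0.08 and -0.07.

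**Figure D3:**
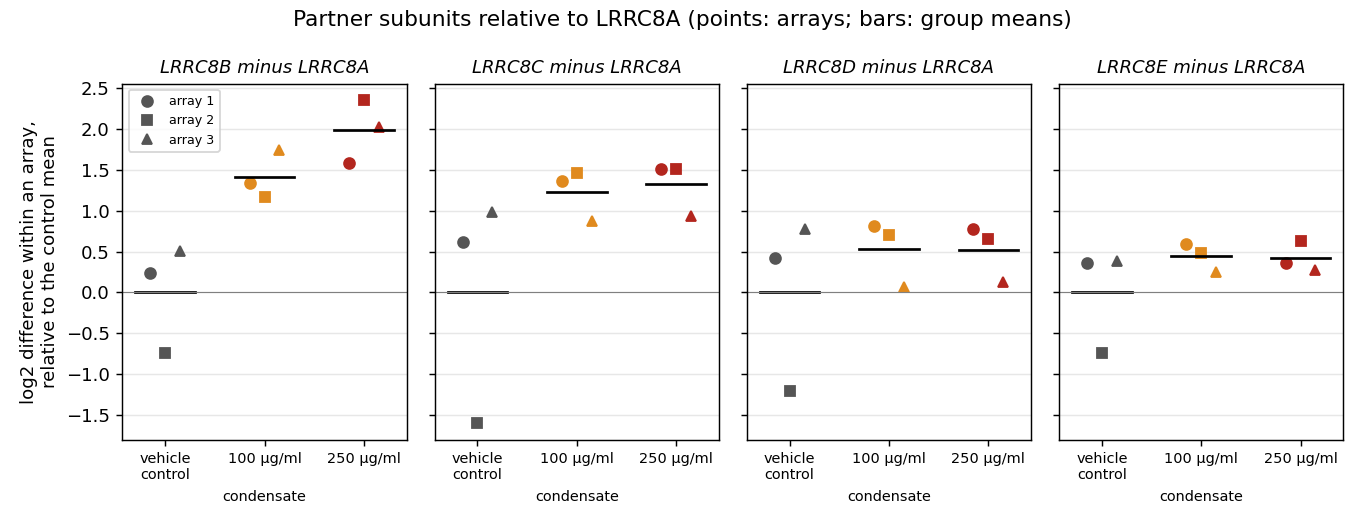
Within-array log2 difference between each partner subunit and LRRC8A (vertical axis, set to 0 at the control mean) in vehicle control, 100 µg/ml and 250 µg/ml arrays (horizontal axis), with arrays as points and group means as bars. The LRRC8B panel is the one in which all 6 treated arrays lie above the 3 controls, and control replicate 2 is the lowest point in every panel.

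Across the 9 arrays the members did not vary as 1 unit. LRRC8C and LRRC8D had a Pearson correlation of 0.78 over all arrays and 0.86 after the group means were removed. LRRC8B and LRRC8C, both higher under condensate, correlated at 0.64 over all arrays but at -0.39 within groups. LRRC8A and LRRC8C correlated at -0.78, a value that was 0.23 without control replicate 2. Other pairs also moved with that array. Without it LRRC8A and LRRC8B went from -0.15 to 0.82 and LRRC8C and LRRC8E from 0.18 to 0.72. LRRC8C and LRRC8D were then at 0.65, LRRC8B and LRRC8C at 0.68 and LRRC8B and LRRC8E at 0.76. LRRC8D still correlated at -0.37 with LRRC8A and at -0.02 with LRRC8B. These are descriptions over 9 arrays that share the dose groups and the normalization.

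The genes with the pattern most like a member, by Pearson correlation over the 9 arrays, differed from member to member. For LRRC8B they were SLC27A4, which encodes a fatty acid transport protein (0.96), SCAMP2, a secretory carrier membrane protein gene (0.95), and BDH1, which encodes a mitochondrial ketone body dehydrogenase (0.95). SLC27A4 averaged 6.90 at 250 µg/ml, against 5.98 in vehicle controls, a difference of 0.92 ± 0.11 (adjusted p = 0.016), a value that is no separate evidence since the gene was taken for its likeness. For LRRC8C they were GSTCD (0.99), the palmitoyltransferase gene ZDHHC14 (0.98) and NFXL1 (0.98), with differences of 0.56, 0.67 and 0.44 at 250 µg/ml.

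For LRRC8D the likest were the cancer-testis antigen gene MAGEA4 (0.94), the ER chaperone gene CLGN (0.94) and MOXD1 (0.94). For LRRC8E they were LMAN2, a cargo lectin gene of the secretory pathway (0.95), the nucleoporin gene NUP42 (0.90) and GPR155 (0.90). For LRRC8A they were SESN3, a sestrin gene (0.98), LMBR1L (0.97) and the collagen gene COL1A1 (0.97), and the rank correlations of these 3 with LRRC8A were only 0.53 to 0.70. The high LRRC8A value of control replicate 2 enters each of them. MAGEA4 and SESN3 were dim, with group means of 2.73 to 2.91 and 2.82 to 3.48. Without detection calls, whether these 2 genes were expressed cannot be told. With 14207 genes to choose from, high values of this kind are found for any pattern.

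The stretch of chromosome 1 from LRRC8B to LRRC8D holds 12 annotated genes in RefSeq, of which 3 were measured, the LRRC8 genes themselves. The 4 genes that flank it most closely, GBP1P1, LOC105378844, LOC105378847 and RN7SKP272, were not measured alone. The nearest measured genes, taken after the rule had found none, were the interferon-inducible GTPase genes GBP6 and GBP5 on the LRRC8B side and the zinc finger gene ZNF326 and the homeobox gene BARHL2 on the LRRC8D side. At 250 µg/ml their differences from vehicle were -0.04 ± 0.09, -0.24 ± 0.09, -0.10 ± 0.18 and -0.23 ± 0.15 (adjusted p = 0.85, 0.25, 0.82 and 0.48). None of these 4 passed at either dose, where 0.549% of all genes were called at 250 µg/ml and 0.0633% at 100 µg/ml. GBP5 arrays lay below all controls at both doses, and GBP6 arrays at 100 µg/ml. Over all genes this held for 14.3% at 250 µg/ml and 11.9% at 100 µg/ml. GBP6 (group means 2.25 to 2.37) and GBP5 (2.51 to 2.76) lay below the lower quartiles of the arrays (2.89 to 3.10). BARHL2 was at 3.42 to 3.65 and ZNF326 at 7.13 to 7.23. Whether the dim genes were expressed cannot be told.

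Other genes of anion transport and cell volume control were read as lists. Of 5 measured genes of osmolyte uptake, 1 was called at 250 µg/ml, where 0.549% of all genes were called. This was SLC6A6, the taurine transporter that fills cells with an osmolyte the LRRC8 channel releases, and it rose. It read 7.46, 6.63 and 6.47 in the vehicle controls, 8.12, 8.18 and 7.60 at 100 µg/ml, and 8.73, 8.89 and 8.28 at 250 µg/ml. All 6 treated arrays lay above all 3 controls, as for 4.29% of all genes. All 3 arrays at 250 µg/ml also lay above those at 100 µg/ml, as for 3.32% of all genes. The rise at 250 µg/ml was 3.43-fold, or 1.78 ± 0.29 (adjusted p = 0.048), and at 100 µg/ml the difference was 1.11 (adjusted p = 0.20). The call held in 4 of 9 fits that left out an array (adjusted p 0.022 to 0.20), and was lost without control replicate 2, CSC_100 replicate 1 or 2, or CSC_250 replicate 1 or 2, with changes between 1.59 and 2.08. It was also lost in 4 of 11 other settings, namely quantile normalization (0.061), unmoderated variance (0.14), all probe sets tested (0.050) and only the 6 arrays compared (0.13). The other 4 genes of the list were lower in the mean at 250 µg/ml without passing, from -1.04 to -0.12, and the list median was -0.35. Named after their values were seen, the inositol transporter gene SLC5A3 had the difference of -1.04 ± 0.49 (adjusted p = 0.33). NFAT5, the transcription factor that drives osmolyte uptake in hypertonic medium, had one of -0.43 ± 0.27 (adjusted p = 0.45). For both, control replicate 2 alone lay among the treated arrays. SLC5A3 controls read 12.46, 10.52 and 12.44, against 10.41 to 11.22 in treated arrays. NFAT5 controls read 7.97, 6.83 and 7.60, against 6.80 to 7.27.

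In the other 5 lists 0 members passed at either dose, where 0.549% of all genes were called at 250 µg/ml and 0.0633% at 100 µg/ml. Lists of this size hold too few genes for a count of 0 to set them apart. The pannexins and other large-pore channels, relatives of LRRC8 in structure or in pore size, had a median of -0.08 over 8 genes at 250 µg/ml, with PANX2 at 0.70 ± 0.14 (adjusted p = 0.070) and CALHM2 at -0.67 ± 0.23 (0.20). The other anion channels had a median of -0.03 over 21 genes, with the anoctamin gene ANO10 at 0.93 ± 0.34 (adjusted p = 0.23) and VDAC3, a channel gene of the outer mitochondrial membrane, at 0.77 ± 0.18 (0.093).

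Cation-chloride cotransport genes, which load cells with salt or unload it, had a median of 0.11 over 8 genes, with the kinase genes OXSR1 at -0.69 ± 0.39 (adjusted p = 0.41) and STK39 at 0.65 ± 0.26 (0.26). Potassium, water and stretch channels had a median of -0.14 over 11 genes, with the calcium-activated potassium channel gene KCNN4 at -0.94 ± 0.22 (adjusted p = 0.093) and KCNMA1 at -0.40 ± 0.33 (0.57). Genes that carry, cleave or sense cGAMP had a median of 0.03 over 7 genes, with the cGAMP hydrolase gene ENPP1 at 0.62 ± 0.27 (adjusted p = 0.29) and IRF3 at 0.57 ± 0.25 (0.30). Against a median of -0.04 over all genes, these lists stayed within 0.15 log2 units of it. The lists mix bright genes, such as CLIC4 (above 99.7% of genes), with dim ones, such as KCNJ10 (3.57%), PANX3 (6.36%) and AQP4 (8.29%). Without detection calls, whether the dim ones were expressed cannot be told, and they enter the medians. At 100 µg/ml the medians of the 6 lists lay between -0.30 and 0.09, where that over all genes was -0.05.

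**Figure D4:**
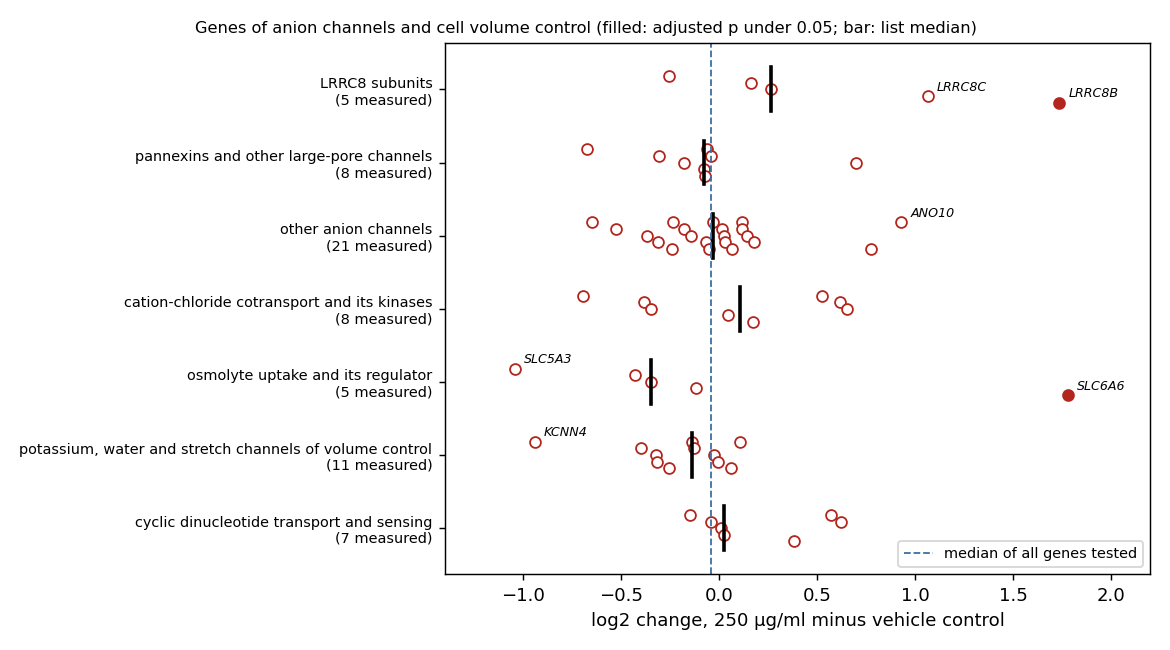
Log2 change at 250 µg/ml minus vehicle control (horizontal axis) of the genes in 7 lists, with genes as points, filled where the adjusted p over all genes was under 0.05, list medians as black bars and the median of all genes tested as a dashed line. LRRC8B at 1.73 and SLC6A6 at 1.78 are the filled points.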

How the data were processed

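RNA was hybridised to Affymetrix exon arrays. The deposited values are on a log2 scale, 1 for each transcript, and per the submitters' processing notes were made with RMA in Partek, with build hg18 named. Software versions and filters are not given. The deposited arrays were close to each other without sharing 1 distribution, with medians from 4.42 to 4.59, and were used without further scaling. Of 17629 probe sets, 14378 name 1 gene, 2405 several and 846 none. Gene numbers were matched to current symbols in RefSeq (GRCh38.p14), where 28 were missing, and the probe set with the highest mean was kept for 169 genes with several.

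All 9 arrays were fitted with limma 3.58.1 in R 4.3.3, with 1 mean per group or 1 slope on dose. Variances were moderated by eBayes, and p-values were adjusted over all 14207 genes by the Benjamini-Hochberg method (threshold 0.05). In simulated data with 200 of 14207 genes changed, 62% of 2-fold and 95% of 4-fold changes passed when the comparison of 250 µg/ml with control was simulated. These shares describe those data only. In the limma fit of the arrays at 250 µg/ml against control, LRRC8C at 2.09-fold did not pass (adjusted p = 0.14). LRRC8B at 3.33-fold (0.036) and SLC6A6 at 3.43-fold (0.048) passed close to the threshold. How many changes of such sizes the fit of the arrays misses was not tested. The number of arrays limits the precision.

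Members and gene lists were chosen with earlier results of these data known. Genes named were all members, the 3 genes most correlated with each, list members past the threshold (otherwise the 2 largest changes at 250 µg/ml), and chromosomal neighbours. Array numbers were checked for pairing. Deviations from the group means correlated at 0.44 to 0.68 between arrays of the same number at both doses, and at -0.14 to 0.27 with controls, so the doses were taken as paired from the data, not from the labels. Alternatives covered scaling, dim genes, moderation, array weights, a replicate block and leaving out each array.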

Additional observations from a re-analysis of the deposited data

How the results depend on the processing

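With 1 array left out in turn, the number of LRRC8 members called at 250 µg/ml against control ran from 0 to 1, that for the dose slope from 0 to 1, and that for the other 2 comparisons stayed at 0. At 250 µg/ml the count was 0, against 1 as reported, with unmoderated variance (LRRC8B adjusted p = 0.13) and with only the 6 arrays compared (0.090). It stayed at 1 in the other 9 settings, the replicate block included (0.040). Over all LRRC8B settings at 250 µg/ml the adjusted p ran from 0.014 to 0.17. For the dose slope the count was 1, against 0 as reported, after centring on array medians, without dim genes, with a variance trend, with array weights and with equal dose steps, and 0 with the replicate block.

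The LRRC8B and LRRC8C changes kept their sign in all settings. With single arrays left out, the LRRC8A change ran from -0.62 to 0.064 at 100 µg/ml and from -0.49 to 0.19 at 250 µg/ml, and its slope from -0.15 to 0.078 per 100 µg/ml. At 100 µg/ml LRRC8D ran from -0.0086 to 0.30 and LRRC8E from -0.0014 to 0.14, and between the doses LRRC8D ran from -0.038 to 0.27. Relative to LRRC8A, LRRC8D ran from -0.073 to 0.92 at 100 µg/ml and from -0.081 to 0.91 at 250 µg/ml. Between the doses the same ratio ran from -0.24 to 0.19 for LRRC8D, from -0.090 to 0.28 for LRRC8C and from -0.13 to 0.052 for LRRC8E. Against vehicle, the sign of LRRC8A, of its slope and of LRRC8D relative to LRRC8A turned only without control replicate 2. So did that of LRRC8D at 100 µg/ml. LRRC8E at 100 µg/ml turned only without CSC_100 replicate 1, and LRRC8D between the doses only without CSC_100 replicate 3. Why these arrays differ was not tested, nor was the cause of the other reversals.

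The number of genes called overall moved with the setting. At 250 µg/ml it was 78, against 164 after centring, 148 after quantile normalization, 130 without dim genes, 3 unmoderated, 164 with a variance trend, 234 with array weights, 122 with the replicate block, 167 without replicate 3 of both doses, 1 with only the 6 arrays compared, and 4 to 296 with single arrays left out. At 100 µg/ml it was 9, and 0 to 73 over all settings. For the slope it was 16, and 1 to 211. The replicate block changed no call of a member. A block fitted on the 6 treated arrays alone was chosen after seeing the data.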
